A study of Homo sapiens with 19 samples.

Results

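The mRNAs of 6 genes whose coding CAG repeats expand in polyglutamine diseases, HTT, ATXN1, ATXN3, ATXN7, TBP and ATN1, were followed through the RNA-seq and eCLIP libraries of the series. They were found by gene ID in the TPM table and in the eCLIP table, where they made up 6 of 19924 genes, and by transcript in the rRNA-depleted table, where they accounted for 123 of 256980 transcripts. SH-SY5Y cells, a human neuroblastoma line, were transfected with control siRNA (siCtrl) or depleted of G3BP1 (siG3BP1) or G3BP2 (siG3BP2), and 1 poly-A RNA-seq library was made from each. Stress granule (SG) cores and the lysate they came from (Total) were sequenced, with 1 library each, from cells exposed to sodium arsenite (AS, 500 µM for 1 h in the study's methods). rRNA-depleted RNA-seq compared untreated cells with cells given 500 µM AS for 1 h, again with 1 library each. In eCLIP, which crosslinks RNA to a protein with UV light and sequences what is precipitated with it, G3BP1 and G3BP2 were each pulled down from untreated and from AS-treated cells, with 2 libraries per group. Groups differed in no other genetic change according to the labels. Outside the rRNA-depleted samples, the labels state 50 mM AS in the treatment notes, those of the siRNA libraries and untreated eCLIP libraries included.

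Polyglutamine diseases are inherited neurodegenerative disorders in which a run of CAG codons in a gene grows beyond its normal length, so that the protein carries an overlong stretch of glutamine and collects in neuronal inclusions. The host proteins have little else in common: huntingtin is a large scaffold of vesicle transport, ataxin-3 removes ubiquitin chains, and the others work in the nucleus, ataxin-1 and atrophin-1 as corepressors, ataxin-7 as a subunit of the SAGA histone-modifying complex and TBP as the TATA-box factor. SGs are condensates of stalled mRNAs and RNA-binding proteins that form in stressed cells around G3BP1 and G3BP2. The diseases are Huntington's disease for HTT, the spinocerebellar ataxias SCA1, SCA3, SCA7 and SCA17 for ATXN1, ATXN3, ATXN7 and TBP, and dentatorubral-pallidoluysian atrophy for ATN1.

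The repeats, which define the group, were read from the canonical transcripts of GENCODE 44 on GRCh38. For each gene a window of 30 bases of coding strand is shown, 9 bases before the longest unbroken run of glutamine codons and the start of the run, which stands in capitals.
HTT: aagtccttcCAGCAGCAGCAGCAGCAGCAG
ATXN1: catcagcatCAGCAGCAGCAGCAGCAGCAG
ATXN3: cagcaaaagCAGCAACAGCAGCAGCAGCAG
ATXN7: gccgcccggCAGCAGCAGCAGCAGCAGCAG
TBP: caacaaaggCAGCAGCAGCAACAACAACAG
ATN1: catcaccacCAGCAACAGCAACAGCAGCAG

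The runs differed in length, purity and place. In TBP the run at chr6:170561908-170562021 (plus strand, exon 3) held 38 codons, 32 of them CAG and 6 CAA, and was the longest. The run of HTT at chr4:3074877-3074939 (plus strand, exon 1) held 21 codons with 1 CAA, and that of ATN1 at chr12:6936717-6936773 (plus strand, exon 5) held 19 with 2 CAA. ATXN1 carried 14 CAG codons at chr6:16327636-16327677 (minus strand, exon 7), within a region of 29 codons that 2 histidine codons (cat) interrupt. ATXN3 (chr14:92071011-92071040, minus strand, exon 10) and ATXN7 (chr3:63912686-63912715, plus strand, exon 3) carried 10 codons each, with 1 CAA in ATXN3 and 0 in ATXN7. The run of ATXN3 lies within a region of 14 codons that 1 other codon (aag) interrupts. That of TBP lies within a region of 41 codons with 1 agg. Whether the run stands near the start of the protein also differed, since it began at codon 18 of 3142 in HTT and codon 30 of 892 in ATXN7, but at codon 296 of 361 in ATXN3. These are lengths of the reference genome, and the repeat lengths of SH-SY5Y cells were not measured here.

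Beyond the repeat, the genes shared little in size. HTT (ENSG00000197386, chromosome 4, 3041363 to 3243957, plus strand) had the longest annotated transcript, of 14438 bases, followed by ATXN1 (ENSG00000124788, chromosome 6, 16299112 to 16761491, minus strand) with 10602. ATXN7 (ENSG00000163635, chromosome 3, 63863155 to 64003462, plus strand) and ATXN3 (ENSG00000066427, chromosome 14, 92044496 to 92106621, minus strand) reached 7224 and 6950 bases. ATN1 (ENSG00000111676, chromosome 12, 6924463 to 6942321, plus strand) and TBP (ENSG00000112592, chromosome 6, 170554302 to 170572870, plus strand) reached 4702 and 1955 bases, so TBP alone lay below the median of 3336 over all genes. In ATXN1, ATXN3 and ATXN7 most of the canonical transcript was 3′UTR (7220, 5771 and 3998 bases), whereas those of TBP and ATN1 had 597 and 544 bases. The GC content of the longest transcript ran from 37.9% in ATXN3 to 64.1% in ATN1, around a median of 48.7%. ATXN3 had 54 annotated transcripts against a median of 6, more than 99.3% of genes. Exons of HTT, ATXN1 and ATXN7 overlap those of a neighbour (HTT-AS and THOC7 on the opposite strand, ENSG00000288708 on the same strand), so their reads cannot be fully separated, and the paralog ATXN3L was listed at 0 TPM in all 5 TPM libraries.

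The libraries were checked against their labels. G3BP1 stood at 18.7 TPM in siCtrl, 5.996 in siG3BP1 and 16.5 in siG3BP2, and G3BP2 at 38.1, 39.4 and 11.4 TPM, so each was lowest where it was targeted. Of 10 noradrenergic neuroblastoma markers 9 exceeded 1 TPM in every TPM library (summed 2300 to 4869 TPM), as did 3 or 4 of 6 mesenchymal-type markers (932 to 2217 TPM). None of 4 glial markers did, and at most 1 of 4 markers of endothelium and blood. TPM of the listed genes summed to between 623955 and 735927 per library, and TPM keeps no record of depth. The 2 rRNA-depleted libraries were scaled to 13291959 and 11281587 reads, and the numbers behind the eCLIP values summed to between 4268911 and 26179736 per library. Because every RNA-seq condition had 1 library, none of the RNA-seq ratios below has a replicate check within these data. A culture with fewer cells of a kind and one with less RNA per cell cannot be told apart.

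In siCtrl cells the 6 mRNAs spanned a wide range. ATN1 was the most abundant at 98.7 TPM, followed by TBP at 31.1 and HTT at 17.04 TPM. ATXN3 (3.69 TPM) and ATXN7 (2.79 TPM) were scarce, and ATXN1 was at 0.550 TPM, below the 1 TPM that was required of the higher library in a comparison. ATN1, TBP and HTT kept their order at the top in both knockdowns. In SG cores the order differed, with HTT and ATXN7 above TBP.

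**Figure D1:**
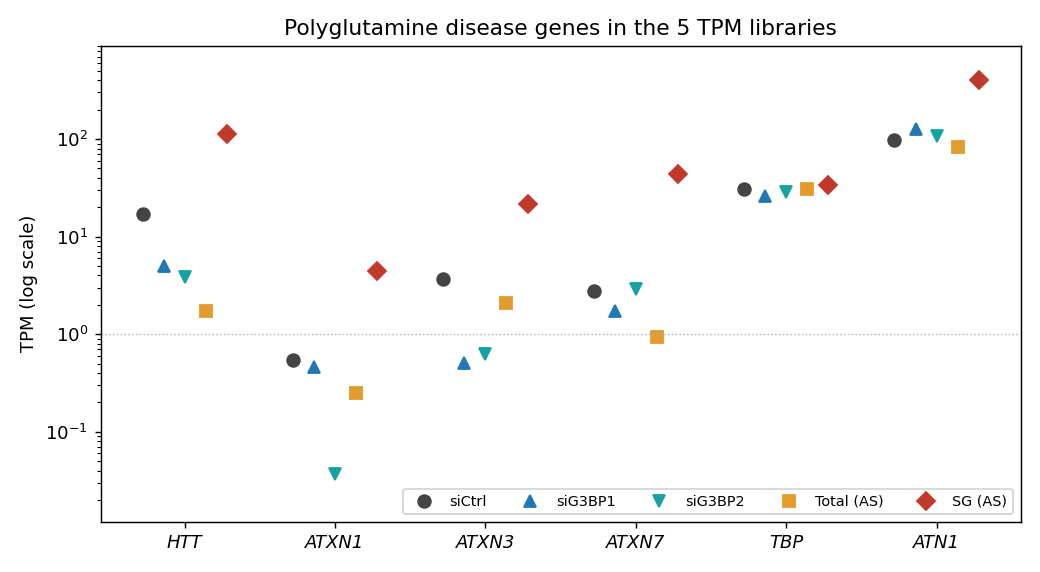
TPM of the 6 genes (log scale) in the siCtrl, siG3BP1, siG3BP2, Total and SG libraries, 1 point per library, with a dotted line at 1 TPM. HTT moves from 1.72 TPM in Total to 114 TPM in SG, while the 5 points of TBP stay between 26.1 and 33.6 TPM.

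Depletion of G3BP1 or G3BP2 was asked to show which mRNAs depend on each protein. HTT and ATXN3 were the members lower in both knockdowns, TBP and ATN1 differed little, and no member was higher past the 2-fold threshold. HTT was at 17.04 TPM in siCtrl, 4.98 in siG3BP1 and 3.89 in siG3BP2. Its ratio to siCtrl was thus 0.292 (log2 -1.77) after G3BP1 depletion and 0.229 (log2 -2.13) after G3BP2 depletion. ATXN3 was at 3.69 TPM in siCtrl, 0.512 in siG3BP1 and 0.632 in siG3BP2. With ratios of 0.139 (log2 -2.85) and 0.171 (log2 -2.55), this deubiquitinase mRNA was lower relative to siCtrl than any other member that passed the filter. Its knockdown values were below 1 TPM, however, and the ranking depended on the scale. On the ratio of TPM + 1, ATXN3 was at 0.322 in siG3BP1 and 0.348 in siG3BP2. HTT was at 0.332 and 0.271 there, so it was the lower of them in siG3BP2. Both knockdowns were set against the same siCtrl library, so the 2 comparisons are not independent. By RT-qPCR on depleted neuroblastoma cells, outside these libraries, the paper also reports HTT RNA as downregulated. Read in order, its sentence assigns this to G3BP2 depletion and not to G3BP1 depletion.

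ATXN7 was at 2.79 TPM in siCtrl, 1.75 in siG3BP1 and 2.87 in siG3BP2, ratios of 0.627 and 1.03, which is below siCtrl in siG3BP1 only and within the 2-fold limits in both. TBP gave 31.1, 26.1 and 28.8 TPM (ratios 0.839 and 0.925), and ATN1 gave 98.7, 126 and 107 TPM (ratios 1.28 and 1.09). Neither of these left the 2-fold limits in either knockdown. ATXN1 was at 0.550, 0.466 and 0.0368 TPM. Its level in siG3BP2 was the lowest value of any member in any TPM library, but it stayed under the filter on low values.

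In siG3BP1 cells 2 of the 5 members that passed the filter had a ratio below 0.5 and 0 a ratio above 2, where 3.69% of the 12280 genes tested had a ratio below 0.5. In siG3BP2 cells the members' counts were again 2 of 5 and 0, where 5.62% of 12229 genes were lower. The median ratio of all genes was 0.941 in siG3BP1 and 0.919 in siG3BP2 (log2 -0.12), and with that median set to 1 the same calls were obtained for the members.

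Long and scarce mRNAs were lower more often than others in these libraries. Of genes with a longest transcript over 10 kb, 8.97% were lower in siG3BP1 and 14.1% in siG3BP2, against 3.50% and 3.86% of those up to 2 kb. Of genes at 1 to 5 TPM in siCtrl, 9.38% and 13.4% were lower. Among the 184 genes that share with HTT a transcript over 10 kb and a siCtrl level of 5 to 20 TPM, 8.15% were lower in siG3BP1 and 17.9% in siG3BP2. Among the 705 genes that match ATXN3 in length (6 to 10 kb) and level (1 to 5 TPM), these shares were 9.22% and 14.6%. Within its class of length, ATXN3 was at percentile 0.403 of the ratios in siG3BP1 and 1.26 in siG3BP2, and HTT at 3.31 and 5.57. The part of length and level in the ratios of HTT and ATXN3 was not tested.

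Against each other, the knockdown libraries gave ratios of siG3BP2 to siG3BP1 of 0.781 for HTT and 1.65 for ATXN7, both within the 2-fold limits. ATXN3 (1.23) and ATXN1 (0.0788) were under the filter in both libraries. This side-by-side ratio was added after the data were seen.

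SG cores were compared with lysate to find which mRNAs collect in granules under AS. In the study's methods the cores were purified from that lysate with an antibody to G3BP1. The ratio thus sets RNA precipitated with G3BP1 against lysate RNA. Classes were set on the ratio of TPM + 1, SG-enriched above 2 and SG-depleted below 0.5, a scale that understates the ratio of scarce genes. HTT, ATXN7, ATXN3, ATN1 and ATXN1 were SG-enriched and TBP was in neither class. HTT was at 1.72 TPM in Total and 114 TPM in SG, a ratio of 42.1 (log2 5.39) that exceeded 98.6% of genes. ATXN7 was at 0.931 and 43.4 TPM, a ratio of 23.0 (log2 4.52) above 95.4% of genes. These 2 mRNAs stood well apart from the other 4.

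ATXN3 was at 2.11 TPM in Total and 21.7 in SG (ratio 7.32, log2 2.87). ATN1 was at 83.3 and 404 TPM (ratio 4.80, log2 2.26), and ATXN1 at 0.247 and 4.42 TPM (ratio 4.35, log2 2.12). With a pseudocount of 0.1 TPM the log2 ratio of ATXN1 was 3.70, with the ratio above those of ATXN3 (9.90) and ATN1 (4.84), and the ratio of ATXN7 was 42.2. TBP, the shortest of the 6 mRNAs, was at 30.8 TPM in lysate and 33.6 in SG cores, a ratio of 1.09 (log2 0.12).

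Enrichment was the rule in these libraries, since 62.9% of the 13560 genes tested were SG-enriched, beside 5 of 6 members, and the median SG to Total ratio was 2.78 (log2 1.47). Setting that median to 1 left 35.3% of 12778 genes enriched and 25.6% depleted. On that scale HTT (15.4), ATXN7 (8.62), ATXN3 (2.84) and ATXN1 (2.08) remained enriched, ATN1 at 1.74 was in neither class, and TBP at 0.412 (log2 -1.28) was SG-depleted. On the TPM + 1 scale the order of the 6 was nearly that of their transcript lengths, with ATXN1 as the exception. The share of SG-enriched genes rose from 23.2% of those with transcripts up to 2 kb through 52.7%, 81.1% and 90.0% to 95.03% of those over 10 kb.

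Set against genes of their own length class, the members were less unusual. HTT lay at percentile 87.9 of genes over 10 kb, whose median was 3.68 on the log2 scale, and ATXN7 at percentile 86.7 of genes of 6 to 10 kb, with a median of 3.07. ATXN3, in the same class as ATXN7, lay at percentile 44.05, and ATXN1, in that of HTT, at 19.9. ATN1 was at percentile 53.2 of genes of 4 to 6 kb (median 2.15) and TBP at 61.5 of genes up to 2 kb (median -0.35). With a pseudocount of 0.1 TPM, HTT was at percentile 78.4 of its class, ATXN7 at 87.5 and ATXN3 at 40.6. ATXN1 was then at 32.0, ATN1 at 42.8 and TBP at 61.3. The part of length in these ratios was not tested.

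**Figure D2:**
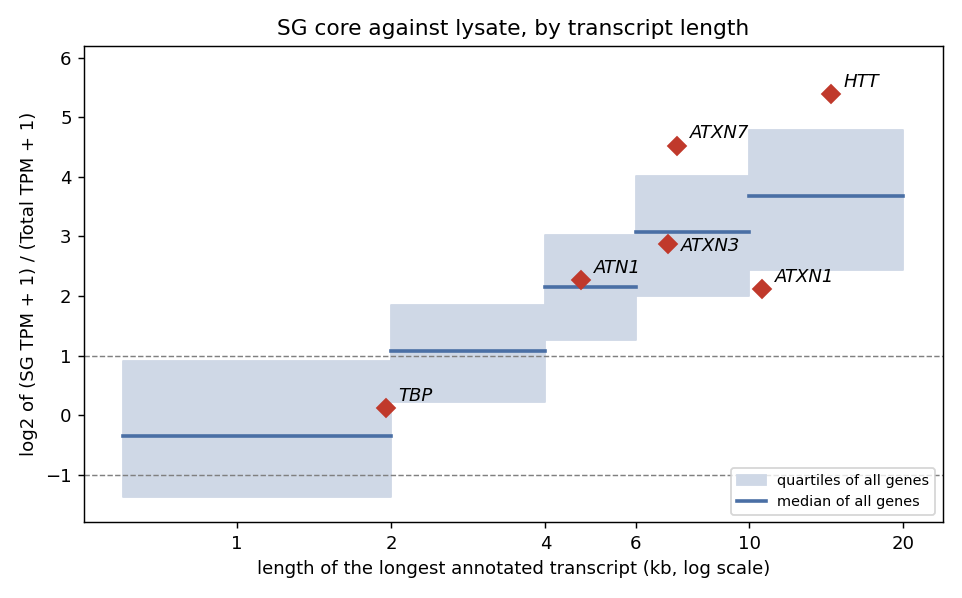
Log2 ratio of SG to Total (TPM + 1) of the 6 genes against the length of their longest transcript (kb, log scale), over the quartiles and median of all genes in 5 length classes. HTT (5.39) and ATXN7 (4.52) lie above the upper quartile of their classes, and ATXN1 (2.12) below the lower quartile of 2.44 of genes over 10 kb.

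The high SG ratios of HTT and ATXN7 went with low lysate values. The Total library divides the SG ratio and is divided in the ratio to siCtrl. A low Total value thus raises the former and lowers the latter, and the 2 are not independent. Total was at 0.101 of siCtrl for HTT and 0.334 for ATXN7, both below 0.5, while ATXN3 (0.571), ATN1 (0.844) and TBP (0.990) were not, and ATXN1 (0.450) was under the filter. So 2 of 5 members were lower in Total, where 27.2% of 12173 genes were and the median ratio of all genes was 0.750 (log2 -0.41). The share that was lower rose with length here too, from 10.0% of genes up to 2 kb to 52.5% of those over 10 kb. Total differed from siCtrl in the siRNA, the lysis and, going by the study's methods and not the labels, the AS exposure. The parts of these cannot be told apart, and this ratio was added after the data were seen.

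The genes whose profiles over the 5 TPM libraries were nearest to those of the members were sought by Euclidean distance between mean-centred log2(TPM + 1) values. For HTT these were TANC2 (distance 0.148) and PLEC (0.295), the latter coding for plectin, a linker of the cytoskeleton. TANC2 read 10.6 TPM in siCtrl, 3.27 in siG3BP1, 2.51 in siG3BP2, 1.00 in Total and 79.1 in SG, which is the sequence of levels seen for HTT. For ATXN7 the nearest were GPATCH2L (0.191) and ZNF160 (0.195), and for ATXN1 RAD54B (0.107) and BTN3A2 (0.123). TBP was nearest to ENSG00000255432 (0.0570) and BPGM (0.0635), and ATN1 to TAS2R4 (0.107) and MALT1 (0.139). The scale compresses differences below 1 TPM, where ATXN1 stood outside SG, so its nearness says little about its levels there. This also holds for TAS2R4, at 0.118 TPM in siCtrl, 0.430 in siG3BP1, 0.255 in siG3BP2 and 0.0336 in Total. ATXN3 had no gene as near, with GRAMD1B at 0.629 and H3C1 at 0.656.

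Partners of each protein were counted to set the members in their pathways. All 86 genes of the 7 lists together gave 3 higher and 3 lower of 81 tested in siG3BP1 (3.70% each way, where 2.53% of all genes were higher and 3.69% lower). In siG3BP2 they gave 2 higher (2.47%) and 4 lower (4.94%), where 2.43% of all genes were higher and 5.62% lower. In SG cores 57 of 83 were enriched (68.7%, beside 62.9% of all genes) and 5 depleted (6.02%, beside 9.45%), and with the median ratio of all genes set to 1 these counts were 27 and 14 of 81, where 35.3% of all genes were enriched and 25.6% depleted. Their median log2 ratio of SG to Total was 1.64, beside 1.51 for all genes tested.

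The list nearest to HTT held genes of huntingtin-interacting proteins, among them REST, a repressor of neuronal genes. Of 9 tested, OPTN, an autophagy receptor, was higher in siG3BP1 (ratio 2.27) and siG3BP2 (2.63), and REST was lower in siG3BP2 (0.490). REST was at 0.632 TPM in Total and 115 in SG (ratio 71.2), the highest of this list, of which 11 of 11 tested were SG-enriched, or 2 of 9 with the median ratio set to 1. Of 8 partners and regulators of ATXN1, none left the 2-fold limits in either knockdown. In SG cores 6 were enriched, led by its paralog ATXN1L (48.8) and the RNA-binding PUM2 (33.4), while U2AF2 (1.89) and RBM17 (1.94), both splicing factors, were in neither class. With the median ratio set to 1, 5 of the 8 were enriched.

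Of 12 genes of the ataxin-3 and p97 pathway, which extracts and degrades ubiquitinated proteins, none left the 2-fold limits in a knockdown. In SG cores 6 were enriched, UBE4B most (7.36) and p97 itself, VCP, at 2.25. The 3 depleted genes were JOSD2 (0.200), a deubiquitinase related to ATXN3, UFD1 (0.210), a p97 cofactor, and STUB1 (0.477), a ubiquitin ligase. With the median ratio set to 1, 1 was enriched and 3 were depleted. Of the 21 genes of the SAGA complex, to which ataxin-7 belongs, 0 were called in either knockdown, 13 were SG-enriched and 1 was depleted. They ranged from TRRAP, the scaffold of the complex (38.7), and its deubiquitinase USP22 (21.1) down to TAF10 (0.469), and 7 were enriched and 6 depleted with the median ratio set to 1.

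TAF1, the largest subunit of TFIID, in which TBP resides, showed the levels of the TBP-related list that differed most. It was at 6.47 TPM in siCtrl, 1.38 in siG3BP1, 0.637 in siG3BP2, 0.239 in Total and 105 in SG. Its ratios to siCtrl were 0.213 and 0.0984, and its SG ratio was 85.7. Of the 21 genes of this list TAF8 was the other one lower in siG3BP1 (0.221) and TAF1 the one lower in siG3BP2, with none higher. In SG cores 14 were enriched and 1, GTF2B, was depleted (0.466), or 7 and 4 with the median ratio set to 1.

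Among 9 partners of ATN1, the ubiquitin ligases WWP1 (4.08) and WWP2 (2.79) were higher in siG3BP1, and WWP1 (5.02) in siG3BP2. MAGI2, a scaffold of cell junctions, was lower in both (0.133 and 0.120), and MAGI1 in siG3BP2 (0.456). In SG cores 6 of the 9 were enriched, led by the atrophin RERE (29.9), and 5 were enriched and 1 depleted with the median ratio set to 1. Of the other polyglutamine disease genes, CACNA1A was under the filter in every TPM library. ATXN2 was at 21.5, 15.6 and 29.6 TPM in siCtrl, siG3BP1 and siG3BP2, called in neither knockdown, and at 20.1 TPM in Total and 80.2 in SG, an enrichment of 3.86 that fell within the 2-fold limits with the median ratio set to 1.

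In the rRNA-depleted libraries, which give values in RPKM per transcript, AS was compared with untreated cells, and the reads behind each value were recovered to give counting error. An exact 95% interval of each ratio was taken from them, which covers counting error alone and not the spread between cultures. A read is counted for every transcript it overlaps, so transcripts of a gene are not independent. The canonical transcripts of TBP, ATXN3 and ATXN7 had ratios above 1 and those of HTT and ATN1 ratios below 1, all within the 2-fold limits. TBP-202 was at 6.52 RPKM (161 reads) in untreated and 9.12 RPKM (191 reads) in AS-treated cells, a ratio of 1.40 (1.13 to 1.73). ATXN3-251 went from 1.36 RPKM (124 reads) to 1.88 (146 reads), a ratio of 1.39 (1.08 to 1.78). ATXN7-220 went from 3.20 RPKM (301 reads) to 4.16 (332 reads), a ratio of 1.30 (1.11 to 1.52).

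These 3 intervals lie above 1 but include the median ratio of all transcripts over 1 RPKM in both libraries, 1.19 (log2 0.25). HTT-201 was at 7.38 RPKM (1322 reads) and 7.20 RPKM (1095 reads), a ratio of 0.976 (0.900 to 1.06). ATN1-202 was at 26.8 RPKM (1676 reads) and 25.03 RPKM (1328 reads), a ratio of 0.934 (0.868 to 1.00). Both intervals lie below 1.19, and the ratios exceeded those of 18.7% and 15.2% of transcripts. ATXN1-202 had 10 and 9 reads (0.0713 and 0.0756 RPKM), too few to compare, with an interval from 0.381 to 2.90.

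**Figure D3:**
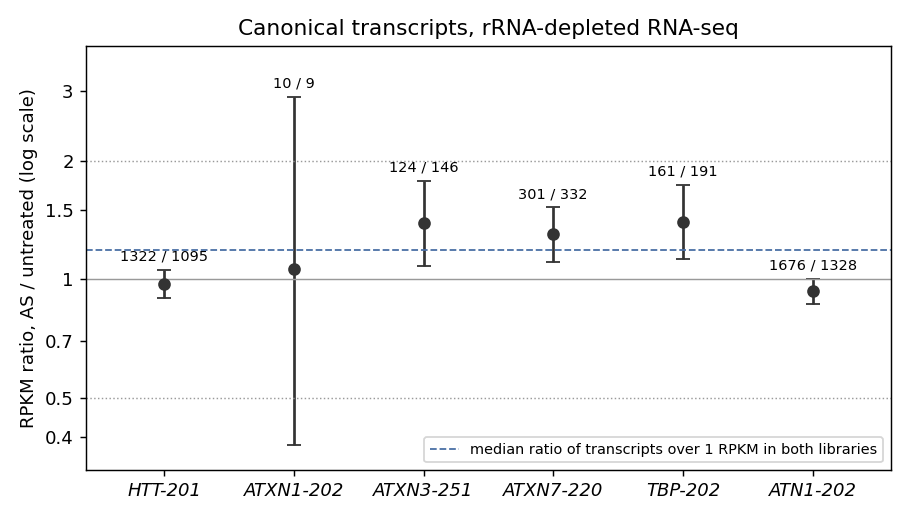
RPKM ratio of AS-treated to untreated cells (log scale) for the canonical transcript of each gene, with exact 95% intervals from the reads behind it. The intervals of HTT-201 (0.900 to 1.06) and ATN1-202 (0.868 to 1.00) lie below the dashed line at 1.19, the median of all transcripts, and ATXN1-202 rests on 10 and 9 reads.

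Of the 123 transcripts of the members, 84 exceeded 1 RPKM in a library, of which 3 had a ratio above 2, where 6.84% of 100705 transcripts did. A ratio below 0.5 was seen for 2, where 2.01% of transcripts had one. TBP-205 was the best covered of the 5, with 1.77 RPKM (21 reads) in untreated and 4.37 RPKM (44 reads) in AS-treated cells, a ratio of 2.47 (1.44 to 4.37). ATXN3-208 (5 and 11 reads, ratio 2.59, 0.830 to 9.52) and ATXN7-206 (7 and 15 reads, ratio 2.52, 0.969 to 7.32) had intervals that include 1. HTT-204 (6 reads) and HTT-210 (5 reads), both retained-intron transcripts, had 0 reads in AS-treated cells, which allows ratios of up to 1.00 and 1.29.

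The transcripts of a gene were also counted by side of 1, a line that 78.9% of all transcripts tested exceeded. Ratios above 1 were found in 44 of 45 transcripts of ATXN3, all 12 of ATXN7 and 6 of 7 of TBP, with medians of 1.34, 1.29 and 1.40. In HTT 2 of 16 and in ATN1 0 of 4 were above 1, with medians of 0.956 and 0.938, and none of the 15 of ATXN1 passed the filter. Summed over transcripts, the ratios were 1.34 for ATXN3, 1.34 for TBP, 1.198 for ATXN7, 0.940 for ATN1 and 0.902 for HTT, so that no member differed by 2-fold.

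eCLIP values were deposited as log10 of a whole number plus 1, 1 per gene and library, and were scaled here to a common total before groups were compared. ATXN1, ATXN3 and HTT stood at or above percentile 93.3 of all genes in every library, ATXN7 between 88.9 and 92.5, TBP between 37.1 and 67.3 and ATN1 between 29.1 and 57.6. As deposited, ATXN1 was at 3.93 and 3.39 for G3BP1 in untreated cells, 3.89 and 3.16 for G3BP1 under AS, 3.95 and 3.61 for G3BP2 in untreated cells and 3.98 and 3.40 for G3BP2 under AS. ATXN3 was, in the same order, at 3.78 and 3.26, 3.79 and 3.25, 3.73 and 3.45, and 3.78 and 3.29. HTT was at 3.69 and 3.08, 3.65 and 2.88, 3.69 and 3.30, and 3.68 and 3.10. For each of these genes replicate 1 was the higher in every group, as it was in the library totals, and untreated and AS-treated values overlapped.

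ATXN7 was at 3.55 and 2.88, 3.40 and 2.74, 3.59 and 3.04, and 3.49 and 3.04 in that order. TBP was at 2.37 and 2.26, 2.56 and 1.40, 2.45 and 2.08, and 2.59 and 2.20. ATN1 was at 1.95 and 2.06, 2.05 and 1.78, 1.94 and 1.87, and 2.06 and 1.90. ATN1, although the most abundant mRNA by TPM, had the lowest eCLIP values but for 1 library of TBP, and its replicates were nearer to each other than those of the longer genes before the libraries were scaled.

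After scaling, the mean log10 value of ATXN1 was 3.78 ± 0.00565 (SD, n = 2) for G3BP1 in untreated and 3.75 ± 0.00357 in AS-treated cells, and that of ATXN3 was 3.64 ± 0.0197 and 3.75 ± 0.131. HTT was at 3.50 ± 0.0441 and 3.49 ± 0.0318, and ATXN7 at 3.33 ± 0.0863 and 3.30 ± 0.0460. TBP (2.43 ± 0.309 and 2.20 ± 0.318) and ATN1 (2.12 ± 0.463 and 2.14 ± 0.316) had the widest spread. For G3BP2, ATXN1 was at 3.78 ± 0.0349 and 3.76 ± 0.0343, ATXN3 at 3.59 ± 0.0773 and 3.61 ± 0.0293, and HTT at 3.49 ± 0.000517 and 3.46 ± 0.0344. ATXN7 was at 3.31 ± 0.114 and 3.34 ± 0.0574, TBP at 2.26 ± 0.0115 and 2.47 ± 0.0977, and ATN1 at 1.90 ± 0.222 and 2.05 ± 0.257. The means ran in the order ATXN1, ATXN3, HTT, ATXN7, TBP and ATN1 in all 4 groups. ATXN1 and ATXN3 differed by less than the SD of ATXN3 for G3BP1 under AS, and TBP and ATN1 did not differ beyond their spread for G3BP1. Scaled values of ATN1 were higher in replicate 2 than in replicate 1 by 0.31 to 0.65 in each group, a difference above that of at least 92.3% of genes.

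**Figure D4:**
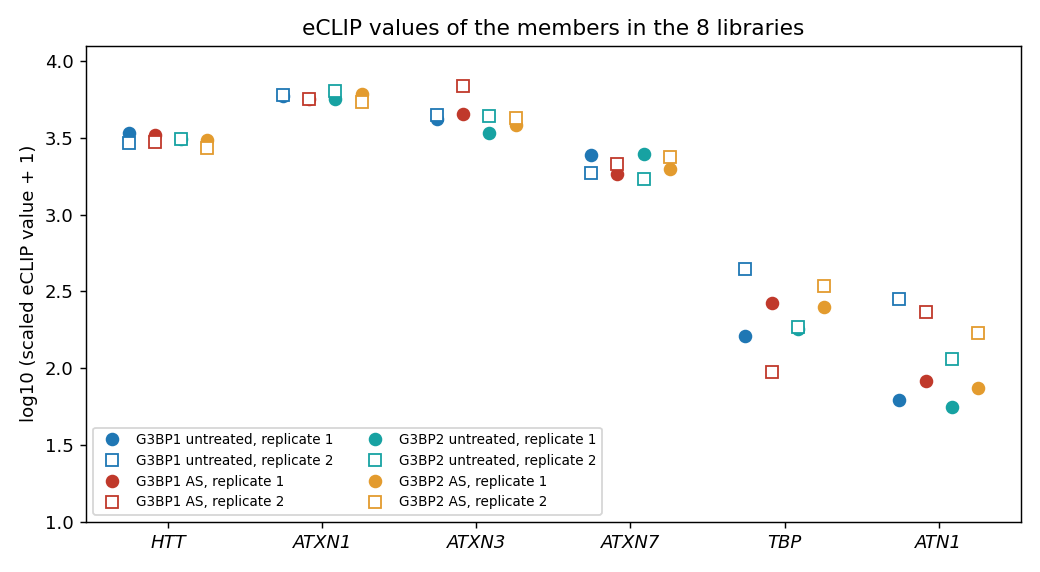
Scaled eCLIP values, log10 (value + 1), of the 6 genes in the 8 libraries, filled for replicate 1 and open for replicate 2. Values of HTT, ATXN1, ATXN3 and ATXN7 lie close together, whereas TBP and ATN1 spread, with SDs of up to 0.318 and 0.463.

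The effect of AS on the scaled values was tested by limma over all genes, with Benjamini-Hochberg adjustment at 0.05. With 2 libraries per group, whose origin from separate cultures is not stated, p measures the spread between these libraries alone, which may be technical. No gene passed in any of the 4 comparisons by limma. For G3BP1, 482 of 18888 genes (2.55%) had an unadjusted p under 0.05, 0 of them members. The largest effect of AS on a member was that of TBP, -0.23 on the log10 scale (SE 0.218), and the next that of ATXN3, 0.11 (SE 0.0670, 95% interval -0.0575 to 0.283). The value of TBP rested on single libraries, being -0.00370 without AS replicate 2, -0.0105 without untreated replicate 2, -0.454 without AS replicate 1 and -0.447 without untreated replicate 1. HTT (-0.00699), ATXN1 (-0.0222), ATXN7 (-0.0321) and ATN1 (0.0196) differed less, and the adjusted p by limma was 0.996 for each member.

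For G3BP2, 635 of 19035 genes (3.34%) had an unadjusted p under 0.05, again 0 of them members. TBP had the largest effect here too, 0.20 (SE 0.0840, 95% interval -0.0149 to 0.420), followed by ATN1 with 0.15 (SE 0.181). HTT (-0.0321), ATXN1 (-0.0171), ATXN3 (0.0180) and ATXN7 (0.0229) were within 0.0321 of 0, and each member had an adjusted p of 0.995 by limma. Whether AS acted differently on the values of the 2 proteins was tested by the interaction, for which 144 of 19259 genes (0.748%) had an unadjusted p under 0.05. TBP gave the largest difference among the members, 0.43 (SE 0.264, 95% interval -0.193 to 1.06, adjusted p by limma 1.00), and that interval leaves its sign undetermined. Without AS replicate 2 or untreated replicate 2 of G3BP1 it was 0.206 or 0.213, and without AS replicate 1 or untreated replicate 1 of G3BP1 it was 0.656 or 0.649.

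Averaged over both treatments, G3BP2 and G3BP1 were then compared, and 335 of 19259 genes (1.74%) had an unadjusted p under 0.05, none of them a member. ATXN3 had the lowest p of the members, with a G3BP2 minus G3BP1 difference of -0.0948 (SE 0.0453, 95% interval -0.199 to 0.00964, adjusted p by limma 0.999). By limma, 0 genes of the 7 lists of partners passed in any of these comparisons.

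The eCLIP value followed the genomic span of a gene, with r of 0.819 to 0.827 between their log10 values across 19910 genes in each library, a description in which genes of 1 library share its depth. Spans of the members ran from 17859 bases in ATN1 and 18569 in TBP through 62126 in ATXN3, 140308 in ATXN7 and 202595 in HTT to 462380 in ATXN1. Per kb of span, the value of ATXN3 was 10.1 times the median of all genes (8.30 to 17.2 over the 8 libraries), at percentile 99.2 to 99.8. The medians over libraries of HTT (2.27), ATXN7 (2.24), ATXN1 (1.89) and TBP (1.74) were above that of all genes. ATN1, with a median of 0.801, ran from 0.463 to 2.36, and its side of the median depended on the replicate, at 0.562 without replicate 2 and 1.68 without replicate 1. ATXN3 thus stood apart from the other members on this scale. Per kb of longest transcript it did not stand apart from ATXN1, with ATXN3 at 10.5 (8.61 to 17.4) and ATXN1 at 9.48 (8.51 to 10.2). ATXN7 (4.94), HTT (3.65), TBP (1.90) and ATN1 (0.353) were lower there.

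ATXN3 was also the gene with 54 annotated transcripts, and per kb of the summed span of all transcripts it was at 1.09 times the median (0.835 to 1.87). On that scale, which was added after the data were seen, HTT was at 1.01 (0.906 to 1.09), ATXN1 at 1.09 (1.02 to 1.17), ATXN7 at 1.02 (0.814 to 1.16), TBP at 0.989 (0.465 to 2.16) and ATN1 at 1.16 (0.642 to 3.55). The medians over libraries were thus near that of all genes, while single libraries of TBP and ATN1 were not. The values of ATN1 ran from 0.642 to 0.967 in replicate 1 libraries and from 1.36 to 3.55 in replicate 2 libraries. The correlation of eCLIP value with summed span was 0.858 to 0.868 per library.

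**Figure D5:**
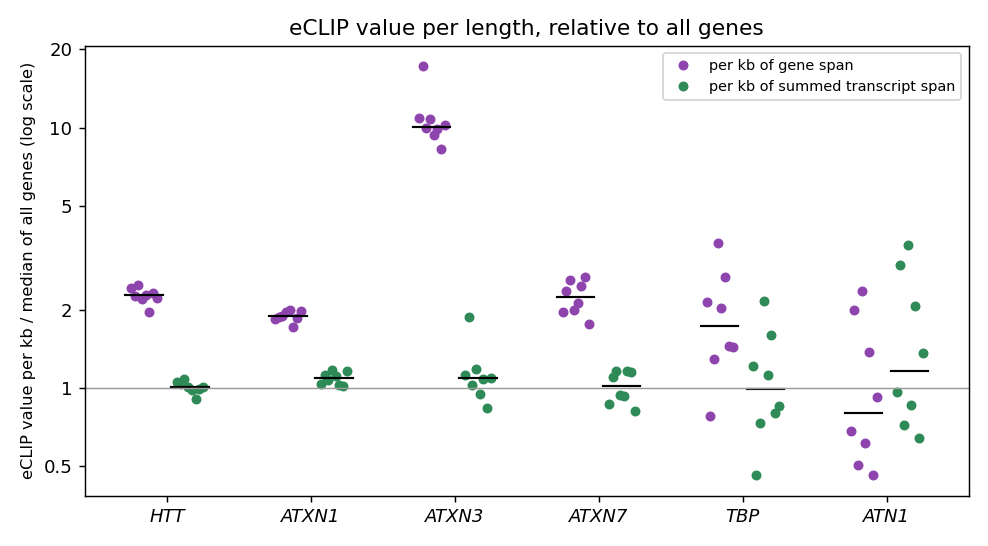
eCLIP value per kb of each gene divided by the median of all genes (log scale), per library, on the gene span and on the summed span of all transcripts. ATXN3 falls from a median of 10.1 on the gene span to 1.09 on the summed span, and the medians of the other 5 genes lie between 0.989 and 1.16 on the latter, with single libraries of ATN1 at up to 3.55.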

How the data were processed

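The members and the lists of related genes were chosen with earlier results of these data known. For eCLIP the authors used fastp to trim and deduplicate reads, STAR for alignment, CLIPper for peaks and SMInput for normalisation. They deposited log10 values per gene, each log10 of a whole number plus 1, and which of these steps the number includes is not stated. The authors aligned RNA-seq reads with HISAT2 2.1.0 (submitters' processing notes, build hg38) and deposited StringTie TPM per gene for the 5 poly-A libraries. Their rRNA-depleted table is headed TPM, but its deposited values are RPKM: multiplied by length, 100% and 99.999% of them give whole reads within 0.05 reads. The 4 SMInput samples were not analysed here.

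Genes were matched by Ensembl ID to GENCODE 44, and 91.1% of transcripts were found. From the values, ratios of TPM above 2 or below 0.5 with over 1 TPM in the higher library were called, and likewise RPKM ratios per transcript. SG classes used TPM + 1. eCLIP numbers were scaled to the median library total and tested as log10(value + 1) with limma 3.58.1 (R 4.3.3, intensity trend) over genes above 0 in at least 2 libraries, after a check on simulated data. Replicates share only a number. Length classes used the longest transcript. The text names the 6 members, G3BP1 and G3BP2, the 2 nearest profiles per member and, of the 7 lists of related genes, those called or at the ends of a list. Some genes that meet the rule are not reported here. Marker lists covered noradrenergic and mesenchymal-type neuroblastoma, glia, and endothelium and blood. Alternatives covered scaling, the replicate block, filters, pseudocounts, folds, the length used and leaving out each replicate. Scripts ran in Python 3.11.15 (pandas 2.3.3, numpy 2.4.6, matplotlib 3.10.9, scipy 1.17.1).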

Additional observations from a re-analysis of the deposited data

How the results depend on the processing

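Depth and replication limit these results: RNA-seq conditions had 1 library, ATXN1 was under the filter in most libraries, and eCLIP effects rest on 2 libraries per group. For eCLIP, genes passing limma were 0 under every setting except 2 for G3BP2 with values as deposited, 0 to 2 for G3BP1 on leaving out a replicate (2 without untreated replicate 2) and 0 to 24 for the interaction (24 without AS replicate 1 of G3BP1). A lone library is then assumed to vary like the other groups. The replicate block left all 4 counts at 0. Deviations of replicate 1 from its group mean were compared between untreated and AS libraries across 19259 genes. They correlated at r = 0.147 (G3BP1) and 0.0602 (G3BP2), with 2 same-numbered pairs per protein. No member passed under any setting, its lowest adjusted p by limma being 0.218.

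Effects of AS on members changed sign with values as deposited, with or without the replicate block, for ATXN3 (-8.26e-05) and ATN1 (-0.0914) in G3BP1, for ATXN3 (-0.0549) and ATXN7 (-0.0500) in G3BP2, and for ATXN3 between proteins (0.0425). Values as deposited lack the scaling to a common library total. Without it the median change of all genes moved from -0.00384 to -0.114 in G3BP1. In G3BP2 that median moved from -0.00243 to -0.075, and between proteins it rose. Why the library totals differ was not tested. On leaving out a replicate, G3BP1 effects ranged from -0.0382 to 0.0242 for HTT, -0.0931 to 0.0290 for ATXN7 and -0.308 to 0.347 for ATN1. G3BP2 effects ranged from -0.0418 to 0.00761 for ATXN1, -0.0367 to 0.0727 for ATXN3, -0.0575 to 0.103 for ATXN7 and -0.0348 to 0.329 for ATN1.

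Called genes numbered 764 in siG3BP1 but 381 with TPM + 1, 1772 at a fold of 1.5 and 2760 without a filter, and 984 in siG3BP2 but 503, 2252 and 2997. ATXN1 was then called lower in siG3BP2 without the filter, and ATXN7 in siG3BP1 at a fold of 1.5. SG calls numbered 9810, or 5870 at a fold of 4, and TBP moved to -1.28 (log2) with the median ratio set to 1. Called transcripts under AS numbered 8920 of 100705 tested, or 25153 at a fold of 1.5 and 1990 with a pseudocount of 1. Over 0.1 RPKM they numbered 33132 of 148041. Transcripts of the members among them were 5, 18 and 2 of 84 tested, and 13 of 104 over 0.1 RPKM. As gene sums, 2258 of 16457 genes were called, with 0 of the 5 members tested. The members' median eCLIP value per kb, 2.06 times that of all genes, was 4.30 per kb of longest transcript, 1.77 against genes over 1 TPM, 1.06 per kb of summed span and 2.12 without either replicate number.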
